A study of Mus musculus with 2 samples.

Results

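A set of 44 genes of the p53 response and of programmed cell death was followed in whole pancreas of 1 Nrdc-cKO mouse and 1 WT mouse. The set was fixed by gene name, and a probe belonged to it when its RefSeq accession was one of a member gene. It covered 65 of the 32993 named probes, for 43 of the 22911 named genes on the array, and Bcl2a1b had no named probe. The study asked what nardilysin, a metalloendopeptidase encoded by Nrdc, does in the exocrine pancreas. The Nrdc-cKO mouse carried Ptf1a-Cre and Nrdcflox/flox, so that Cre acts where the pancreatic transcription factor Ptf1a is or was active, and other cells of the gland keep the gene. The WT mouse is described by that name alone. Both were C57BL/6 males aged 5 weeks, and each pancreas gave Cy3-labelled total RNA for 1 Agilent 1-colour mouse array.

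There were no replicates. Differences therefore come without a spread between animals and without a test, and the number of arrays limits the precision. A level is the log2 processed signal minus the 75th percentile of the array, and a difference is the Nrdc-cKO level minus the WT level. Signal well above background was seen for 60.3% of spots in Nrdc-cKO pancreas and 46.3% in WT pancreas, and detection of a probe asked for this in a share of 0.5 or more of its spots. The errors given beside differences are those of the scanner software for the signal of a spot. They leave out animal, dissection and labelling. Nrdc, seen by 1 probe, had a level of -1.28 in Nrdc-cKO pancreas and 1.93 in WT pancreas, a difference of -3.21, and whether this probe lies in the deleted part is not given in the labels. Of the acinar marker genes that define the exocrine gland, 10 of 10 were detected on both arrays, all of them lower by 2-fold or more in Nrdc-cKO pancreas.

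The transcription factor p53, encoded by Trp53, is kept scarce by the ubiquitin ligase Mdm2 and accumulates after DNA damage and other stress. It then switches on genes that halt the cell cycle, above all Cdkn1a, and genes that promote apoptosis. Apoptosis through mitochondria is decided within the BCL2 family, where BH3-only proteins relieve or activate the pore formers Bax and Bak1 against guardians such as Bcl2 and Mcl1, and is carried out by caspases. Necroptosis is a lytic death that runs through the kinases Ripk1 and Ripk3 and the membrane-breaking protein Mlkl. In the pancreas both forms of acinar cell death are known from experimental pancreatitis.

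Of the 44 genes, 37 were measured on both arrays. Of these, 13 were higher by 2-fold or more in Nrdc-cKO pancreas (35.1%), against 12.8% of all 13001 genes measured, and 2 were lower by as much (5.41%), against 17.3% of all genes. The median difference was 0.43 over the 37 genes and -0.18 over all genes. Detection was limited to Nrdc-cKO pancreas for 6 more genes, as for 12.4% of all named genes. It was limited to WT pancreas for 0, against only 200 of all 22911 named genes. For 4 of these 6 the Nrdc-cKO level was at least 2-fold above the lowest detectable WT level, which held for 22.2% of the 2834 genes seen there alone. The genes of the set were chosen with earlier results of these arrays known, so these counts describe them and are not independent evidence. In whole tissue, fewer cells of a type and less RNA per cell cannot be told apart.

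**Figure D1:**
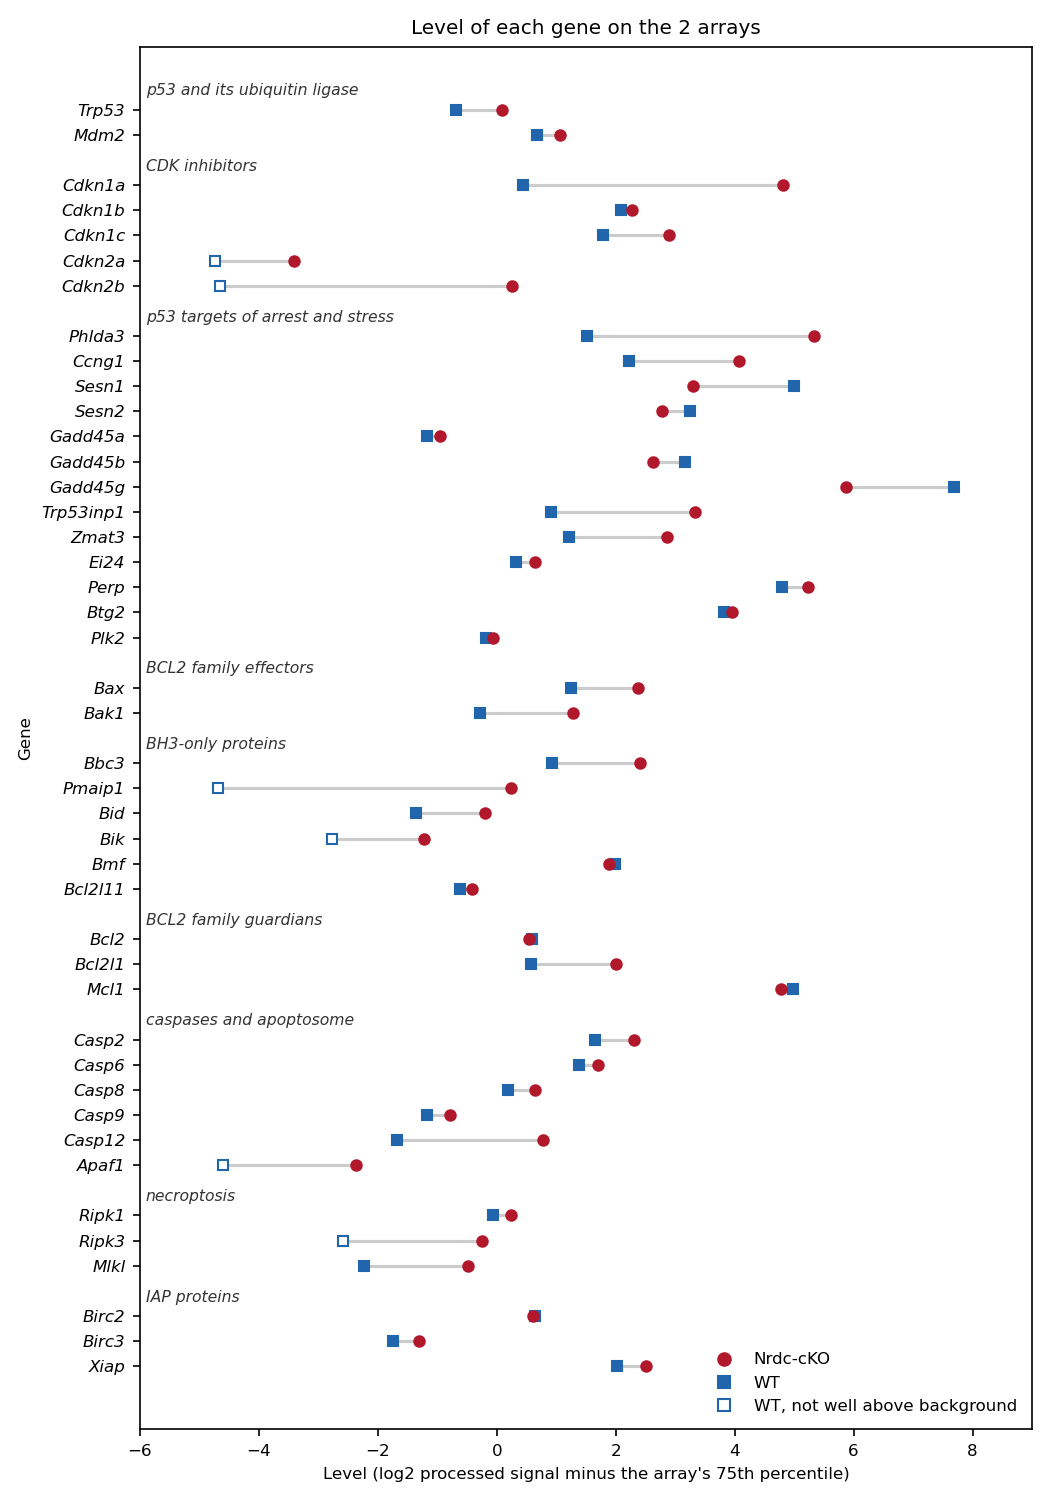
Level of each of the 43 genes with a probe, as log2 processed signal relative to the 75th percentile of the array, with red circles for Nrdc-cKO and blue squares for WT, open where WT was not well above background. The widest gaps among genes measured on both arrays are at Cdkn1a and Phlda3, and the 6 open squares are the genes seen in Nrdc-cKO pancreas alone.

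In the main scaling the gene of p53 itself and its ligase stood within 2-fold. Trp53 had a level of 0.08 in Nrdc-cKO pancreas and -0.68 in WT pancreas, a difference of 0.76 ± 0.23 (1.70-fold). Its difference was past 2-fold in the authors' value table, at 1.26, and with spike-in scaling, at 2.67, and was as low as 0.32 with normexp background correction. Mdm2, which p53 also switches on, had a difference of 0.39 ± 0.18, with its probes at 0.21 and 0.56. Both were above the median of all genes, and the Nrdc-cKO array was the brighter one for both. The p53 protein, which is controlled mainly by its stability, was not measured.

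Among the 37 genes measured on both arrays the largest difference was in Cdkn1a, which encodes p21, an inhibitor of cyclin-dependent kinases and the best known p53 target. Its level was 4.81 in Nrdc-cKO pancreas and 0.43 in WT pancreas, a difference of 4.37 ± 0.21 (20.7-fold), above 99.9% of all genes. The next largest among these was Phlda3, a p53 target that blocks activation of the kinase Akt, with a level of 5.33 in Nrdc-cKO pancreas and 1.52 in WT pancreas. That is a difference of 3.81 ± 0.21 (14.0-fold). Genes with only a bound have no place in this order, and without a filter on dim probes Pmaip1 stood at 4.93 and Cdkn2b at 4.91, beside 4.76 for Cdkn1a. Cdkn1a and Phlda3 were brighter in Nrdc-cKO pancreas by many times the software error.

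Promoter windows from RefSeq were searched for the p53 half-site on both strands, because p53 binds DNA at pairs of such sites. A window runs from 250 bases before to 50 bases after a gene start on GRCm38.p6, and 38 of the 44 genes had 1 or more. The half-site reads the same way on either strand, and an exact match was found in 8.36% of 32851 windows, and in 9.55% of 27025 genes. A pair with at most 13 bases between its sites was found in 24 windows of 20 genes. Among the set, 10 of 38 genes held a half-site, and only Cdkn1a held a pair, 12 bases apart, in 1 of its 2 windows. Shown here are the 250 bases before the start, 5′ to 3′, for the 3 genes at least 2-fold higher and the 1 gene at least 2-fold lower that held a half-site, with the half-sites in capitals:
Cdkn1a, GRCm38.p6 chr17:29090729-29090978, plus strand: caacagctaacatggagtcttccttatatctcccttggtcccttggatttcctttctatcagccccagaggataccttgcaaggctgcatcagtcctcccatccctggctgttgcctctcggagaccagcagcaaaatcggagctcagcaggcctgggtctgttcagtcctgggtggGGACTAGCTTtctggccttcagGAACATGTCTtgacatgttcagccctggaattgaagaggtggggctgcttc
Ccng1, GRCm38.p6 chr11:40755287-40755536, minus strand: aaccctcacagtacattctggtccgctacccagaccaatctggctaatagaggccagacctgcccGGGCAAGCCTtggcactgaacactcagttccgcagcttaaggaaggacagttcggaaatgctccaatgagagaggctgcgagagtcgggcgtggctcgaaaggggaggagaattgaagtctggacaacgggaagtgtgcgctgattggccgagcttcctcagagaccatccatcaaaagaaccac
Bax, GRCm38.p6 chr7:45466899-45467148, minus strand: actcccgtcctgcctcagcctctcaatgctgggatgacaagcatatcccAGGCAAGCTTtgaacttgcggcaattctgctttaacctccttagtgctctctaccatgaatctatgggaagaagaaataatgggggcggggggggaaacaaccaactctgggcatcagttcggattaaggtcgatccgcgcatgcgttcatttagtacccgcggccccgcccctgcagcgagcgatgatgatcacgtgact
Sesn1, GRCm38.p6 chr10:41887189-41887438, plus strand: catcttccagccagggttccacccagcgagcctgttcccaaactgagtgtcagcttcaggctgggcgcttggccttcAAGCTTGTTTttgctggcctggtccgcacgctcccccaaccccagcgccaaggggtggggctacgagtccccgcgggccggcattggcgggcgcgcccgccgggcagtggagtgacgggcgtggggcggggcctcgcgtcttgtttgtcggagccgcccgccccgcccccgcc
Counting back from the gene start, the Cdkn1a half-sites begin at -73 and -51 and read GGACTAGCTT and GAACATGTCT. Those of Ccng1, Bax and Sesn1 start at -185, -201 and -173, each counted from the start that belongs to the window shown. For Cdkn1a this is the upstream one of its 2 windows, and the downstream window held no half-site. The other window of Sesn1 held none either. Of the 10 genes at least 2-fold higher that had a window, 3 held a half-site, as did 6 of 21 within 2-fold, among them Mdm2 at -186 with GAACTTGCCT. A match is a description of the letters only, and sites outside the window, such as those in introns, were not searched.

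The other cell cycle inhibitors of the set differed less or were near background in WT pancreas. Cdkn1c (p57) had a level of 2.89 in Nrdc-cKO pancreas and 1.78 in WT pancreas, a difference of 1.11 ± 0.21 (2.16-fold). Cdkn1b (p27), also of the p21 family, stood at 0.18 ± 0.21, within the software error of no difference. Cdkn2b (p15) inhibits the kinases Cdk4 and Cdk6. Its probes were at 0.19 and 0.33 in Nrdc-cKO pancreas and not well above background in WT pancreas, where they read -4.47 and -4.83. Set against the lowest detectable WT level of -2.64, Cdkn2b was at least 7.44-fold higher in Nrdc-cKO pancreas. Its neighbour on chromosome 4, Cdkn2a, which encodes the tumour suppressors p16 and p19Arf, had 1 of 2 probes detected in Nrdc-cKO pancreas, at -3.41, and none in WT pancreas. That level is below the lowest one detectable in WT pancreas, so no fold can be given. Beside these inhibitors, 6 of 6 markers of dividing cells were past 2-fold lower in Nrdc-cKO pancreas, with a median difference of -2.18. Their summed levels were 5.51 in Nrdc-cKO pancreas and 25.4 in WT pancreas. Such a sum, here and below, adds the levels of all probes of a list, detected or not, on a linear scale. Bright genes therefore weigh most in it. Whether the share of dividing cells has a part in the values of the inhibitors was not tested.

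All 13 genes listed as p53 targets of arrest and stress were measured on both arrays, and they did not share 1 direction. Of the 13, 4 were at least 2-fold higher (30.8%, against 12.8% of all genes). Lower by as much were 2 (15.4%, against 17.3% of all genes), and 7 were within 2-fold. The median of the 13 was 0.21. Beside Phlda3, Trp53inp1, a stress-induced cofactor of p53, had a level of 3.34 in Nrdc-cKO pancreas and 0.91 in WT pancreas. Its difference was 2.43 ± 0.15 (5.38-fold), with its probes at 2.12 and 2.74. Ccng1, cyclin G1, which feeds back on Mdm2, had a level of 4.08 in Nrdc-cKO pancreas and 2.23 in WT pancreas, a difference of 1.85 ± 0.20 (3.62-fold). Zmat3, a zinc finger RNA-binding protein, had a level of 2.87 in Nrdc-cKO pancreas and 1.22 in WT pancreas, a difference of 1.65 ± 0.21 (3.13-fold).

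The lower members were a growth arrest gene and a sestrin. Gadd45g had the lowest value of the set, with a level of 5.87 in Nrdc-cKO pancreas and 7.70 in WT pancreas, a difference of -1.82 ± 0.20 (3.54-fold lower). Its relatives Gadd45b and Gadd45a, which like it act on stress kinase pathways, stood at -0.53 and 0.21. Sesn1, an inhibitor of the growth-promoting kinase complex mTORC1, had a level of 3.30 in Nrdc-cKO pancreas and 5.00 in WT pancreas, a difference of -1.70 ± 0.20 (3.26-fold lower). Its relative Sesn2, which also answers to amino acid and endoplasmic reticulum stress, stood at -0.47. With spike-in scaling, which places all genes higher by 1.91, these 4 stress genes with negative values are above 0, Gadd45g at 0.09 and Sesn1 at 0.21. The p53 targets Perp, a desmosome protein, Ei24, Btg2 and Plk2 were within 2-fold, between 0.12 and 0.43.

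**Figure D2:**
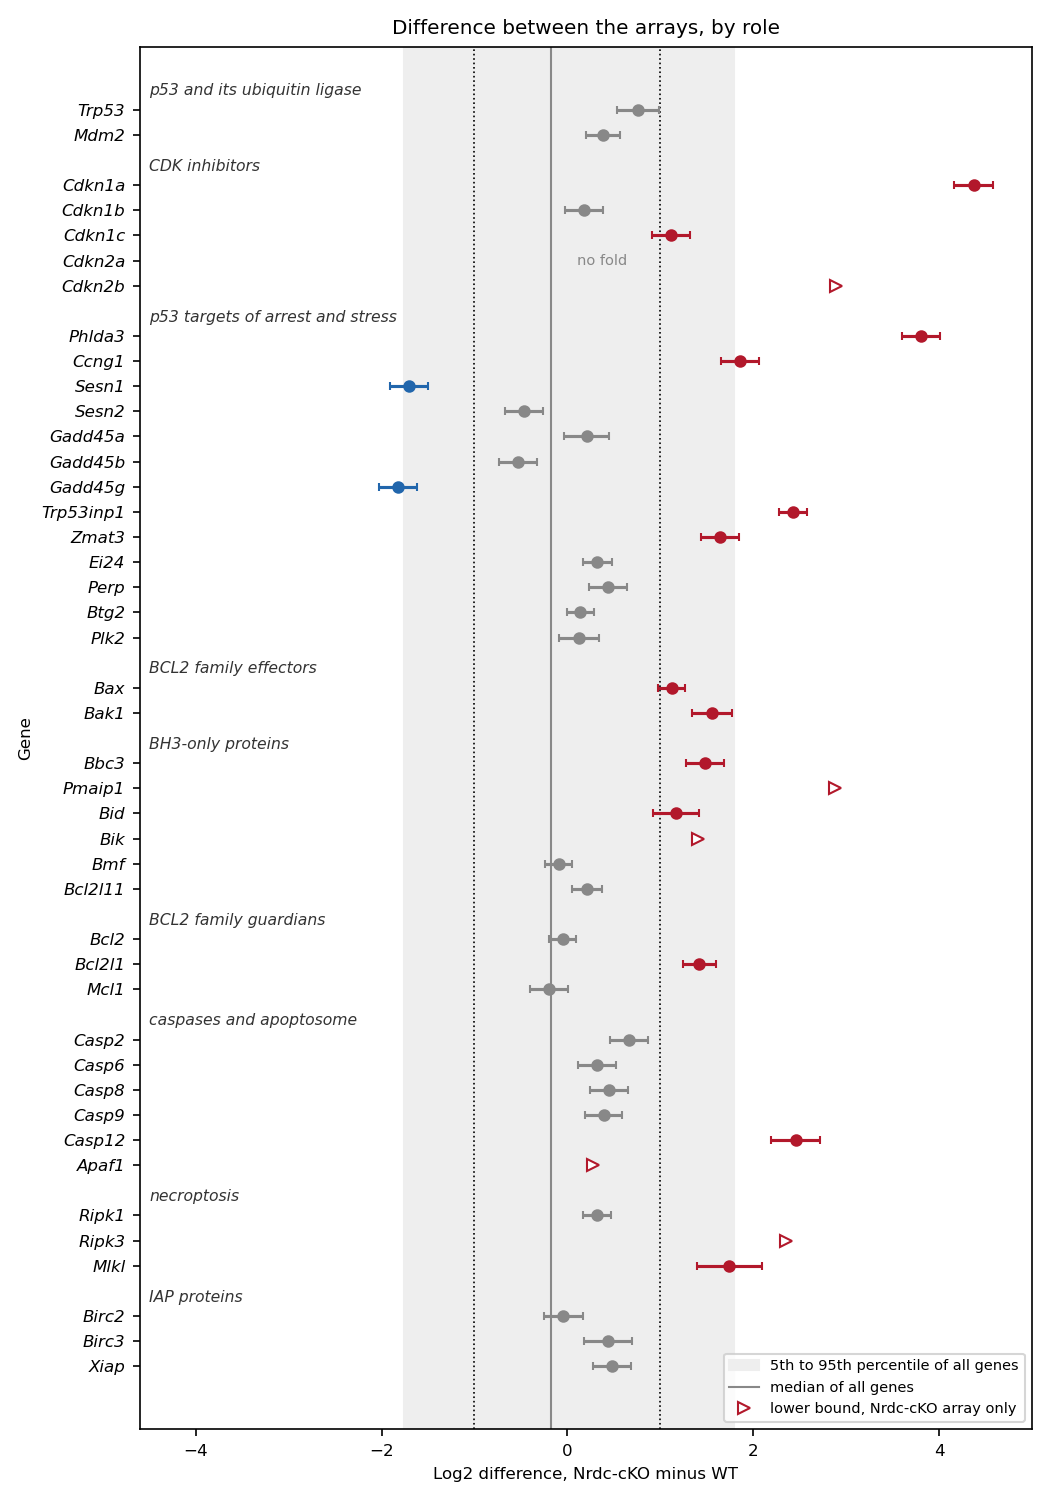
Log2 difference, Nrdc-cKO minus WT, of each gene by role, with the scanner software's error as bars, triangles for lower bounds, dotted lines at 2-fold and a grey band for the 5th to 95th percentile of all 13001 genes. Cdkn1a at 4.37 and Phlda3 at 3.81 lie far right of the band, and Gadd45g at -1.82 lies at its left edge.

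In the BCL2 family the pore formers and several BH3-only genes were higher, while 2 of the 3 measured guardians were within 2-fold. Bax had a level of 2.37 in Nrdc-cKO pancreas and 1.25 in WT pancreas, a difference of 1.12 ± 0.15 (2.18-fold), with its probes at 1.03 and 1.21. Bak1 had a level of 1.28 in Nrdc-cKO pancreas and -0.28 in WT pancreas, a difference of 1.56 ± 0.21 (2.94-fold). Both pore formers were thus past 2-fold, although Bax lay within its error of that threshold, as did Cdkn1c and Bid.

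BH3-only proteins sense damage and act on the rest of the family. Bbc3 (Puma), which p53 switches on, had a level of 2.41 in Nrdc-cKO pancreas and 0.92 in WT pancreas, a difference of 1.48 ± 0.21 (2.79-fold). Bid, which links death receptors to mitochondria once cleaved by Casp8, had a level of -0.19 in Nrdc-cKO pancreas and -1.36 in WT pancreas, a difference of 1.17 ± 0.24 (2.25-fold). Pmaip1 (Noxa), a p53 target that binds Mcl1, had a level of 0.25 in Nrdc-cKO pancreas and read -4.68 in WT pancreas, where it was not well above background, which makes it at least 7.38-fold higher. Bik too was detected in Nrdc-cKO pancreas alone, at -1.23, and was at least 2.66-fold higher. The remaining pair, Bmf and Bcl2l11 (Bim), had probes that went opposite ways, at -1.12 and 0.93 for Bmf and at -0.85 and 1.28 for Bcl2l11, so their means of -0.09 and 0.21 carry no direction.

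Among the guardians, Bcl2l1, whose long form Bcl-xL keeps Bax and Bak1 in check, was the one past 2-fold. Its detected probes had levels of 4.54 and -0.54 in Nrdc-cKO pancreas, against 2.82 and -1.67 in WT pancreas, a mean difference of 1.42 ± 0.17 (2.68-fold), from 1.72 and 1.12 for the same probes. Mcl1 stood at -0.20 ± 0.20 and Bcl2 at -0.05 ± 0.15, near the median of all genes. Bcl2a1b had no named probe, and its close relative Bcl2a1d, which is no member of the set, had a level of 1.55 in Nrdc-cKO pancreas and -1.90 in WT pancreas, a difference of 3.46. Genes of the Bcl2a1 family are near-identical, so a probe can take up transcripts of several of them.

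**Figure D3:**
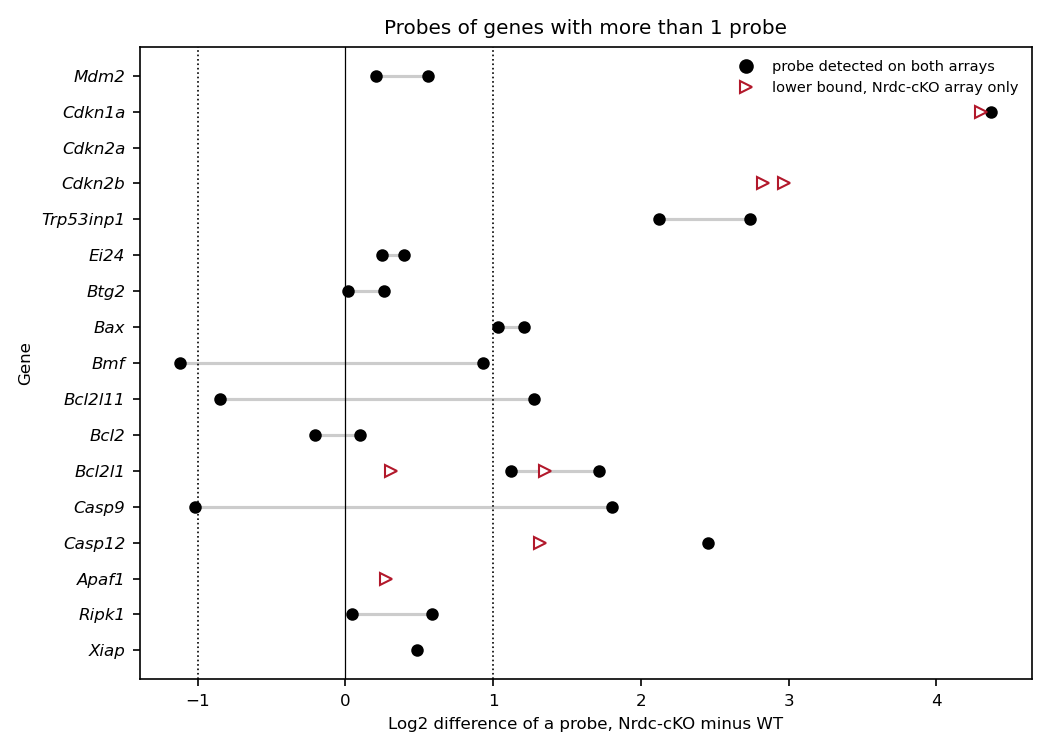
Log2 difference, Nrdc-cKO minus WT, of each probe for the 17 genes with over 1 probe, with black dots for probes detected on both arrays and triangles for lower bounds of probes seen in Nrdc-cKO pancreas alone. The probes of Bmf, Bcl2l11, Bcl2 and Casp9 lie on both sides of 0, and the black dots of Bax, Bcl2l1 and Trp53inp1 lie beyond 1. Bounds below 0 are not drawn, which leaves Cdkn2a without a point.

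The caspases were mostly within 2-fold. Casp8, which starts apoptosis at death receptors, stood at 0.45, Casp2 at 0.66 (1.16 in the authors' value table) and the executioner Casp6 at 0.32. Casp9, which is activated on the Apaf1 apoptosome, had a mean of 0.39 from probes at -1.02 and 1.80, so its direction is not settled. The probe at -1.02 was dim, with levels of -3.25 in Nrdc-cKO pancreas and -2.23 in WT pancreas. The other had levels of 1.67 in Nrdc-cKO pancreas and -0.13 in WT pancreas, and with bright probes only Casp9 stood at 1.80. Apaf1, the scaffold of that complex, was seen in Nrdc-cKO pancreas alone, at -2.36, with a bound of at least 1.21-fold. The exception was Casp12, an inflammatory-group caspase that sits at the endoplasmic reticulum in mice, with a level of 0.77 in Nrdc-cKO pancreas and -1.68 in WT pancreas, a difference of 2.46 ± 0.26 (5.49-fold). With normexp background correction and 75th percentile scaling it stood at 1.35.

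Of the necroptosis genes, Mlkl and Ripk3 were higher in the main scaling and Ripk1 was within 2-fold. Mlkl had a level of -0.49 in Nrdc-cKO pancreas and -2.23 in WT pancreas, a difference of 1.74 ± 0.35 (3.35-fold), but 0.32 with normexp and the 75th percentile and 0.69 with normexp and quantile scaling. Ripk3, which phosphorylates Mlkl, had a level of -0.24 in Nrdc-cKO pancreas and read -2.59 in WT pancreas, not well above background. In the main scaling, the only one for which bounds are given, Ripk3 was at least 5.10-fold higher. Ripk1, shared by the apoptosis and necroptosis routes, stood at 0.32, with its probes at 0.05 and 0.59. The inhibitor of apoptosis proteins Birc2, Birc3 and Xiap are ubiquitin ligases that restrain caspases or Ripk1. They stood at -0.04 ± 0.21, 0.44 ± 0.26 and 0.49 ± 0.20. Birc2 and Birc3, neighbours on chromosome 9, changed order with normexp and the 75th percentile, at 0.10 for Birc2 and -0.19 for Birc3.

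Markers of other cell types differed beside these genes. Of 7 macrophage markers, all were detected on both arrays and 6 were past 2-fold higher, with summed levels of 113 in Nrdc-cKO pancreas and 36.7 in WT pancreas. Of 7 stellate cell and fibroblast markers, 7 were higher, with sums of 846 in Nrdc-cKO pancreas and 222 in WT pancreas, and of 9 islet markers 8 were higher, with sums of 2698 in Nrdc-cKO pancreas and 365 in WT pancreas. Acinar markers summed to 7855 in Nrdc-cKO pancreas and 35564 in WT pancreas. Fat cell markers (6 genes, all detected in Nrdc-cKO pancreas and 2 of them in WT pancreas) summed to 623 in Nrdc-cKO pancreas and 20.2 in WT pancreas. The 2 fat cell markers measured on both arrays differed by -1.87 and 2.51, and the 4 seen in Nrdc-cKO pancreas alone had bounds past 2-fold. Of 7 duct markers, 2 were past 2-fold higher, 1 lower and 4 within 2-fold, with a median difference of 0.67 and sums of 184 in Nrdc-cKO pancreas and 35.3 in WT pancreas. Endothelial markers (5 genes, 1 of them past 2-fold higher) summed to 12.5 in Nrdc-cKO pancreas and 7.47 in WT pancreas. Of 7 T cell markers, 1 had no named probe, 6 were detected in Nrdc-cKO pancreas and 2 in WT pancreas. Their sums were 14.6 in Nrdc-cKO pancreas and 19.8 in WT pancreas. The sum was thus lower in Nrdc-cKO pancreas, while 4 of the genes were seen there alone, 2 of them with bounds past 2-fold. Of 5 B cell markers, 5 were detected in Nrdc-cKO pancreas and 2 in WT pancreas, with sums of 6.91 in Nrdc-cKO pancreas and 1.25 in WT pancreas. The 2 measured on both arrays differed by -1.92 and -0.39, while the 3 seen in Nrdc-cKO pancreas alone had bounds past 2-fold. Of 5 neutrophil markers, 4 were detected in Nrdc-cKO pancreas and 2 in WT pancreas, with sums of 97.1 in Nrdc-cKO pancreas and 107 in WT pancreas. The 2 measured on both arrays differed by -0.22 and 3.82, and of the 2 seen in Nrdc-cKO pancreas alone 1 had a bound past 2-fold. The part of these cell types in the values of Casp12, Ripk3, Mlkl, Cdkn1a or any other gene of the set was not tested.

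Across the 9 scalings 10 of the 37 genes changed sign, among them all 8 with a negative main value, and 7 did so without spike-in scaling. Beside Sesn1, Sesn2, Gadd45b and Gadd45g, which were named above, these were Gadd45a, Bmf, Bcl2, Mcl1, Birc2 and Birc3. All 13 higher genes were above 0 in each scaling, and 11 of them were past 2-fold in all 9. The exceptions were Bid and Mlkl, which fell short of 2-fold with normexp, Bid at 0.54 and 0.72. Cdkn1a ranged from 4.06 to 6.29 and Phlda3 from 3.81 to 5.72. Both lower genes were past 2-fold in 8 of the 9 and not with spike-in scaling.

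**Figure D4:**
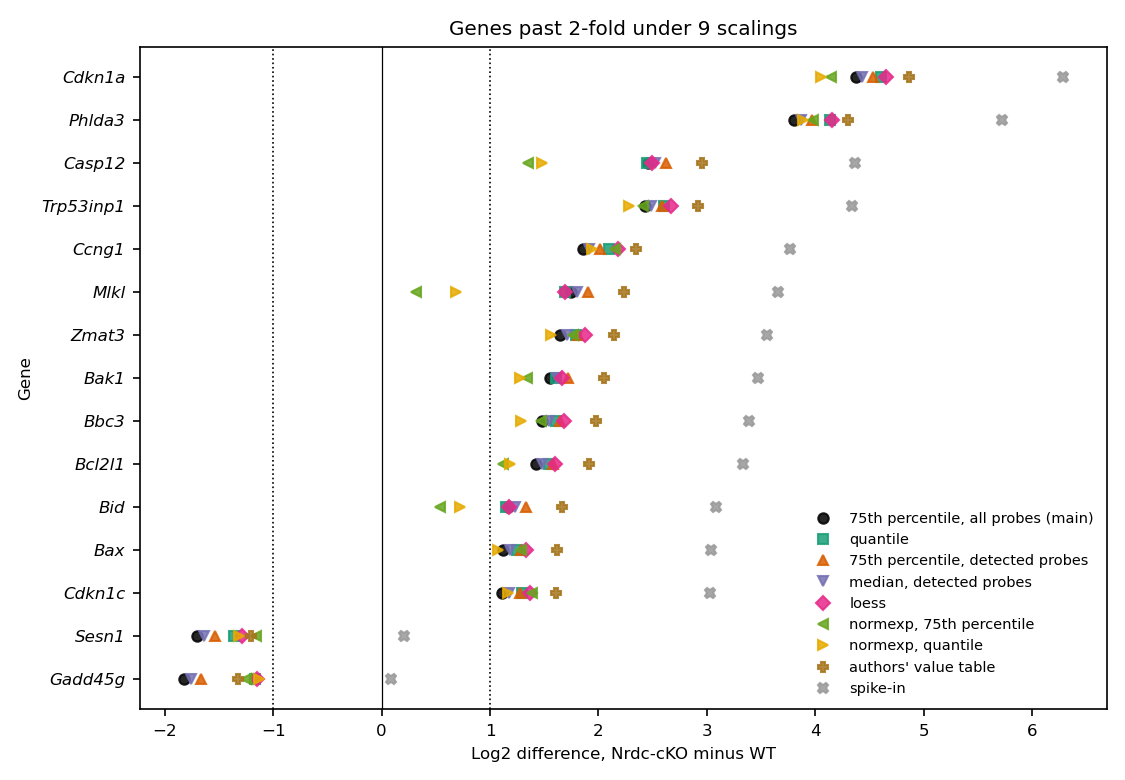
Log2 difference, Nrdc-cKO minus WT, of the 15 genes past 2-fold under 9 scalings, each with its own symbol, with dotted lines at 2-fold. All 13 upper genes lie right of 0 in every scaling, Mlkl and Bid have the normexp values left of the 2-fold line, and spike-in scaling puts Sesn1 and Gadd45g right of 0.

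Of 100 other genes of the same pathways, also listed with earlier results of these arrays known, 84 were measured on both arrays. Past 2-fold, 16 were higher (19.0%, against 12.8% of all genes) and 10 lower (11.9%, against 17.3% of all genes). Their median was 0.07. The 40 other p53 pathway genes had 34 measured, of which 10 were higher (29.4%) and 4 lower (11.8%), and a median of 0.22. Among the highest were Pvt1, a non-coding RNA next to Myc, at 4.79, Psrc1, a spindle protein, at 3.58, and the death receptor Tnfrsf10b at 1.83. The lowest were the p53 relative Trp73 at -1.87, the spindle protein Ckap2 at -1.84, the Casp2 adaptor Pidd1 at -1.20 and the DNA repair gene Xpc at -1.08. Further genes of DNA repair and nucleotide supply in this list, singled out with their values in view, were Ddb2 at -0.64, Rrm2b at -0.57 and the polymerase gene Polk at 1.18. The drug efflux pump Abcb1a and the receptor Eda2r, seen in Nrdc-cKO pancreas alone, were at least 4.16-fold and 2.23-fold higher.

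Of 10 other cell cycle inhibitors and pocket proteins, all measured, the antiproliferative gene Btg1 (1.20) was past 2-fold higher and the phosphatase Cdkn3 (-2.93), which is known to be expressed in dividing cells, lower. Of 14 other BCL2 family genes, 9 were measured, with Bcl2a1d (3.46) higher and the guardian Bcl2l2 (-1.05) and Bcl2l14 (-1.13) lower, and Bcl2l15 and Bcl2a1c had bounds of 1.13-fold and 1.09-fold. Of 14 other caspase and apoptosome genes, 13 were measured, and the inflammatory caspases Casp1 (3.35) and Casp4 (3.18) were higher, while the mitochondrial proteins Htra2 (-1.24) and Endog (-1.01) were lower. Of 22 other death receptor, necroptosis and inhibitor genes, 18 were measured, with Tnfaip3 (2.71), a brake on NF-kappaB signalling, and Zbp1 (1.83), an activator of Ripk3, higher and the mitotic protein Birc5 (-2.57) lower. Traf1 and Tnfrsf1b, seen in Nrdc-cKO pancreas alone, were at least 4.96-fold and 2.94-fold higher. In the order given, 10%, 11.1%, 15.4% and 11.1% of the measured genes of these lists were higher, against 12.8% of all genes. Lower were 10%, 22.2%, 15.4% and 5.56%, against 17.3% of all genes.

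**Figure D5:**
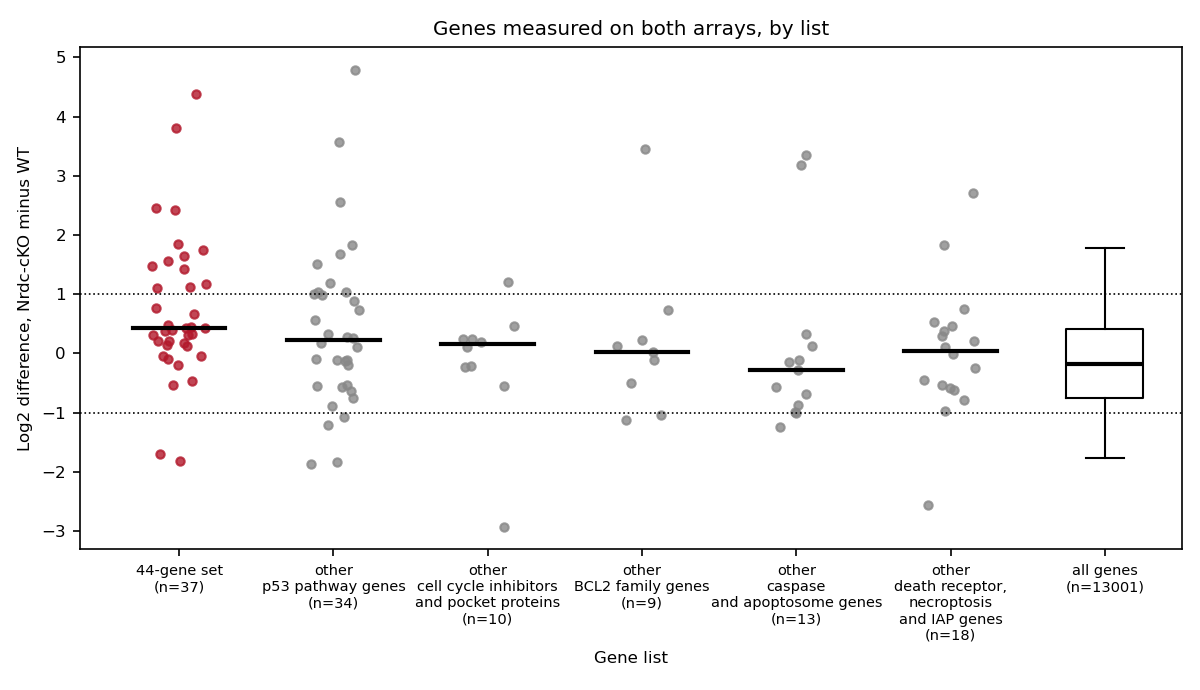
Log2 difference, Nrdc-cKO minus WT, of each gene measured on both arrays in the set (37 genes) and in 5 further lists, with black bars for medians, beside a box of all 13001 genes with whiskers from the 5th to the 95th percentile. In the main scaling the set has a median of 0.43, the other caspase list one of -0.29, and all genes one of -0.18.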

How the data were processed

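Whole-pancreas RNA of 1 Nrdc-cKO and 1 WT mouse was read on 1 array each, and groups were taken from the sample titles. The deposited scanner files hold a processed intensity per spot, corrected for background and spatial trend by Agilent Feature Extraction (12.0.3.1 per the file headers, 11.5.1.1 per the submitters' processing notes) and not normalized between arrays. Flags for signal well above background, saturation and outliers came from the same deposited files. The authors' deposited value table held these intensities times 1 constant per array, 1.92 for Nrdc-cKO and 4.37 for WT, with medians of 66.0 and 42.5, on a linear scale and without centring.

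Of 62976 spots per array, 59305 were not controls. Outlier spots were left out (74 on Nrdc-cKO and 80 on WT), no spot was saturated, log2 signals of repeat spots were averaged, and the 75th percentile over 56604 probes was subtracted. Of 35885 probes with a RefSeq accession, 32993 (91.9%) were named through a RefSeq table of GRCm38.p6. A gene's value is the mean difference, Nrdc-cKO minus WT, of the probes detected on both arrays, called at a log2 difference of 1.0 or more either way. A gene detected on 1 array only got a bound, its level minus the higher of the lowest detected level and its own signal on the other array. The software error of a spot's signal gave the errors, and the SD between repeat spots had a median of 0.03 over 291 probes. The calculation was tested on simulated data.

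The genes of the set and all lists were chosen with earlier results of these arrays known. All genes of the set past 2-fold or with a bound are given, and of each other list the 4 highest and 4 lowest past 2-fold and the 2 largest bounds, apart from results that are not reported here. Normexp, quantile scaling and loess used limma 3.58.1 in R 4.3.3, where repeat spots were also averaged. The other scalings and the rest used Python 3.11.15. Alternatives were other scalings, background correction, dim-probe filters, probe choice and thresholds.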

Additional observations from a re-analysis of the deposited data

Results flagged for a closer look

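Signals outside the gene values came from 7 probes of measured genes that were detected in Nrdc-cKO pancreas and not well above background in WT pancreas, so that they entered no mean. The bound was past 2-fold for 3 of them. The second probe of Cdkn1a, annotated to another RefSeq transcript, had a level of 1.67 in Nrdc-cKO pancreas and read -3.47 in WT pancreas, which makes it at least 19.8-fold higher, beside 20.7-fold for the probe detected on both arrays. The second probe of Casp12 had a level of -1.32 in Nrdc-cKO pancreas and read -4.92 in WT pancreas, at least 2.49-fold higher, beside 5.49-fold. A further probe of Bcl2l1 had a level of -1.28 in Nrdc-cKO pancreas and read -2.96 in WT pancreas, at least 2.56-fold higher, beside 2.68-fold for the mean of the 2 probes detected on both arrays. Of the remaining 4 probes, another of Bcl2l1 had a bound of 1.24-fold, and no fold can be given for those of Bcl2l1, Bcl2l11 and Xiap. With 1 array per group no value could be set against a spread between samples.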

How the results depend on the processing

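No paired analysis was possible because a group is 1 array, and no replicate could be left out. A planned match by array symbol was not run, as only accessions are given in the files analysed here, and normexp ran on the median spot signal for want of a mean signal. Setting the median of all genes to 0 and leaving out genes whose probes differ in sign were chosen after seeing the data. The main counts were 13 higher and 2 lower of 37, with a median of 0.43. With spike-in scaling they were 35 higher and 0 lower with a median of 2.35, Sesn1 stood at 0.21 and Gadd45g at 0.089, and 80.3% of all genes were higher, because this scaling places every gene 1.91 higher. At a 4-fold threshold they were 4 higher and 0 lower of 37, against 485 higher and 390 lower of all 13001 genes. By construction a stricter threshold cannot raise these counts. The median was 0.53 with loess, 0.60 when the percentile was taken over detected probes, 0.93 in the authors' value table, where 15 genes of the set and 22.2% of all genes were higher and the median of all genes was 0.31, and 0.62 with the median of all genes at 0. In the remaining alternatives 11 to 18 genes were higher and 2 or 3 lower. Of all genes, 9.01% to 20.1% were higher and 6.51% to 35.0% lower in these. The 11 came with normexp, where 9.58% or 9.01% of all genes were higher. The 18 were of 43 genes without a filter on dim probes, where 13.6% of all genes were higher and 35.0% lower. Signal over background limits the 6 genes seen in Nrdc-cKO pancreas alone. The cause was not tested where none is named.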
